A study of Mus musculus with 48 samples.

Results

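Marker genes of the neuron fields of the hippocampus, 10 in all, were followed across mouse hippocampus and amygdala: Prox1, Dsp, Tdo2 and Lct, Neurod6, Neurod2 and Wfs1, and Zbtb20, Lmo1 and Man1a. Every probe set whose platform symbol was 1 of these 10 genes was taken, which gave 13 of the 10833 probe sets that name a single gene. Dsp, Tdo2 and Man1a had 2 probe sets each. The other 7 genes had 1 each. The series holds 48 one-colour Affymetrix arrays of biotin-labelled cRNA made from total RNA, 26 from hippocampus and 22 from amygdala. Each tissue had 3 arms, labelled NH, CS and FC. The labels do not spell these out, and the series title, which speaks of associative and nonassociative learning, led to reading them as naive home cage, conditioned stimulus alone and fear conditioning. Hippocampus had 10 NH, 8 CS and 8 FC arrays, and amygdala had 10 NH, 6 CS and 6 FC arrays. The labels used here give organism and tissue for every group but no strain, age, sex or time after training, and do not state whether animals were pooled. All 22 amygdala titles open with the batch number, and in 8 of them the remaining digits split into the numbers of 2 hippocampus arrays of the same arm. Read that way, an amygdala array would hold a pool of 2 animals whose hippocampi were also arrayed. The labels do not say this, and no fit here links arrays across tissues. Whether each array stands for its own animal is not stated, so p-values cover the spread between arrays, which may be technical.

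The hippocampus is built from fields with distinct principal neurons, the granule cells of the dentate gyrus and the pyramidal cells of CA1 to CA3. The granule cells send their mossy fibre axons to CA3, whose pyramidal cells project in turn to CA1. Prox1, a homeobox transcription factor, marks and maintains granule cell identity. The amygdala borders the ventral hippocampus and holds excitatory and inhibitory nuclei of its own. Genes of these fields were therefore followed in both tissues, though not all of them are limited to hippocampus. On assembly GRCm38.p6 RefSeq places Prox1 at chr1:190118035-190170827, Dsp at chr13:38151294-38198577, Tdo2 at chr3:81958412-81975728 and Lct at chr1:128284756-128328318. Neurod6 lies at chr6:55677818-55681263, Neurod2 at chr11:98325415-98329645 and Wfs1 at chr5:36966104-36988982. Zbtb20 lies at chr16:42875689-43634392, Lmo1 at chr7:109138565-109175207 and Man1a at chr10:53904785-54076616. Where in each gene a probe set matches was not analysed here.

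The values were summarised by robust multi-array averaging, per the submitters' processing notes, and log2 was taken here. Array medians over the 12422 probe sets that are not array controls lay between 76.5 and 80.8 intensity units in hippocampus and between 52.3 and 56.1 in amygdala. The ranges did not touch, so deposited levels were not compared directly between tissues. The tissue test used within-array percentiles, the percent of these probe sets that a probe set exceeded on its own array. A fold scale from joint quantile normalisation is given beside it. The correlation of log2 values between pairs of arrays was 0.982 to 0.999 for hippocampus and 0.987 to 0.998 for amygdala, and 0 pairs of arrays held identical values. Arrays were processed in 7 batches, each of 1 tissue: batches 4, 5, 6 and 7 of hippocampus and batches 1, 2 and 3 of amygdala. Batch 7 and batch 1 each held 6 NH arrays and no other arm, so differences from NH with batch as a block rest on 4 NH arrays in each tissue. The deposited values came with no detection calls, so a low percentile is not read as absence.

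Of the 13 probe sets, 10 stood higher in hippocampus than in amygdala, 2 stood lower and 1 did not pass the test. The lower ones were Wfs1 and Tdo2 93827_at, and the second lost its call without batch 1, 2 or 6. The higher ones stood for 9 of the 10 genes, with the largest differences for the granule cell markers Dsp and Lct and the pyramidal cell factor Neurod6. Wfs1 stood lower in hippocampus. Across all 12422 probe sets the same test called 20.6% higher and 21.7% lower in hippocampus (limma on percentiles, processing batch as a random block, Benjamini-Hochberg adjusted p under 0.05). The median difference was 20.1 percentile points over the 13 member probe sets and -0.00517 over all probe sets. Counted array by array, 7 member probe sets had every hippocampus array above every amygdala array, 1 had every one below, and 5 overlapped. Over all probe sets 2.04% were separated upward and 2.34% downward. The genes were picked as markers of hippocampal fields, with earlier results of these data known. A difference in that direction is therefore no independent check on the dissection labels. In bulk tissue, fewer cells of a type and less RNA per cell cannot be told apart. Every batch held 1 tissue, so a batch effect common to all batches of a tissue and the tissue itself cannot be told apart. The adjusted p-values given for single members count arrays, though tissue varies only between 7 batches. They overstate the precision, and each was larger with batch means as samples.

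Among the dentate granule cell markers, Prox1 ranked between the 29.1 and 43.6 percentiles in hippocampus, with a median of 38.7 over 26 arrays. In amygdala it ranked between 9.13 and 13.8, with a median of 11.6 over 22 arrays. The tissues did not overlap, and the difference was 27.1 ± 1.02 percentile points (SE, limma adjusted p = 9.87e-26). Dsp encodes desmoplakin, which ties intermediate filaments to desmosomes and is a granule cell marker in the hippocampus. Its probe set 94247_at ranked between 64.3 and 74.0 in hippocampus (median 65.8) and between 14.7 and 19.9 in amygdala (median 17.3). Every hippocampus array was thus far above every amygdala array, by 49.7 ± 1.20 points on average over arms (SE, limma adjusted p = 1.98e-33). Only 0.00805% of all probe sets had a difference as large in either direction, which is the Dsp probe set itself. The other Dsp probe set, 161892_r_at, stayed near the bottom of the arrays, between 1.06 and 4.06 in hippocampus (median 2.16) and between 0.620 and 4.24 in amygdala (median 2.29). It overlapped fully, with a difference of -0.229 ± 0.439 points (SE, limma adjusted p = 0.714). The 2 Dsp probe sets therefore disagree, and the Dsp result rests on 94247_at.

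Tdo2 encodes tryptophan 2,3-dioxygenase, the first enzyme of the kynurenine path of tryptophan breakdown. Its probe set 99269_g_at ranked between 53.1 and 60.4 in hippocampus (median 57.3) and between 29.2 and 32.5 in amygdala (median 30.9). The groups were separate, 26.7 ± 0.745 points apart (SE, limma adjusted p = 5.35e-31). The other Tdo2 probe set, 93827_at, went the other way by a small step, from a median of 28.9 (26.2 to 34.8) in hippocampus to 31.1 (29.8 to 37.0) in amygdala. Those ranges overlapped and the difference was -2.25 ± 0.767 points (SE, limma adjusted p = 0.0156). It missed the threshold without batch 1, batch 2 or batch 6 (limma adjusted p = 0.0610, 0.0576 and 0.0616). Lct encodes lactase, the milk sugar enzyme of the gut, whose transcript also marks granule cells. Lct ranked between 56.4 and 70.4 in hippocampus (median 61.1) and between 8.11 and 15.4 in amygdala (median 11.8). With 49.4 ± 1.29 points between the tissues and no overlap (SE, limma adjusted p = 4.00e-32), Lct came next after Dsp in size. All 4 granule cell genes thus had a probe set that separated the tissues completely.

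The pyramidal cell genes differed in direction and size. Neurod6, a basic helix-loop-helix factor of excitatory forebrain neurons, ranked between 76.1 and 89.4 in hippocampus (median 81.8) and between 29.8 and 39.9 in amygdala (median 35.3). No array crossed over, and the difference was 47.6 ± 1.23 points (SE, limma adjusted p = 3.76e-32). Its relative Neurod2, a factor of the same family that is broadly expressed in excitatory neurons, ranked near the top of the arrays in both tissues, between 92.8 and 96.5 in hippocampus (median 94.7) and between 90.9 and 95.2 in amygdala (median 92.6). Those ranges overlapped, and the difference was 1.84 ± 0.489 points (SE, limma adjusted p = 0.00208). It did not pass when each batch mean was used as 1 sample (limma adjusted p = 0.0847). Wfs1 encodes wolframin, a membrane protein of the endoplasmic reticulum that marks CA1 pyramidal cells and is also known from the central and extended amygdala. Wfs1 ranked between 87.0 and 90.7 in hippocampus (median 89.2) and between 92.8 and 95.2 in amygdala (median 94.2). Every hippocampus array lay below every amygdala array, and the difference was -5.12 ± 0.483 points (SE, limma adjusted p = 4.80e-12). Differences of that size or more in percentile points were found in 12.6% of all probe sets, and the fold is given below.

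Zbtb20, a BTB zinc finger repressor that specifies hippocampal neurons, had the widest spread of the members in hippocampus. Its percentile lay between 45.3 and 75.7 there (median 66.0) and between 35.5 and 47.5 in amygdala (median 43.5). The lowest hippocampus array, NH replicate 66 at 45.3, lay within the amygdala range, and the next lowest stood at 53.3. The difference was 22.6 ± 2.21 points (SE, limma adjusted p = 1.34e-11). With each batch mean used as 1 sample it was 22.7 ± 3.85 points (SE, limma adjusted p = 0.00529). Lmo1, a LIM-only cofactor of transcription complexes, ranked between 80.0 and 87.3 in hippocampus (median 85.3) and between 67.3 and 74.7 in amygdala (median 71.2). The tissues were separate, 13.4 ± 0.800 points apart (SE, limma adjusted p = 1.61e-18). Man1a encodes a Golgi alpha-mannosidase that trims N-linked glycans. Its probe set 160579_at ranked between 64.8 and 74.9 in hippocampus (median 67.5) and between 44.6 and 56.2 in amygdala (median 48.4), without overlap, for a difference of 20.1 ± 1.40 points (SE, limma adjusted p = 2.87e-16). The second Man1a probe set, 160580_at, had the same direction and a smaller difference of 6.57 ± 1.17 points (SE, limma adjusted p = 1.18e-05), with overlapping ranges.

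The tissue differences were also put on a fold scale by quantile-normalising all 48 arrays together, which forces the tissues onto 1 distribution. On that scale hippocampus was 7.64-fold higher for Lct, 6.87-fold for Dsp 94247_at, 5.67-fold for Neurod6, 3.51-fold for Prox1 and 2.64-fold for Tdo2 99269_g_at. Zbtb20 was 2.18-fold, Man1a 160579_at 1.97-fold and Lmo1 1.76-fold higher, and Wfs1 was 1.60-fold lower. Points and folds were not proportional: Lmo1 differed by 13.4 percentile points and Wfs1 by -5.12. In the NH arrays alone the difference was 48.7 points for Dsp 94247_at, 49.3 for Lct, 44.9 for Neurod6, 24.7 for Prox1 and -4.90 for Wfs1. With batch means as samples, 15.5% of all probe sets were called higher and 16.3% lower, and Neurod2 was the single member that lost its call. In that setting the limma adjusted p was 8.17e-07 for Dsp 94247_at, 6.24e-07 for Lct and 2.24e-05 for Prox1.

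**Figure D1:**
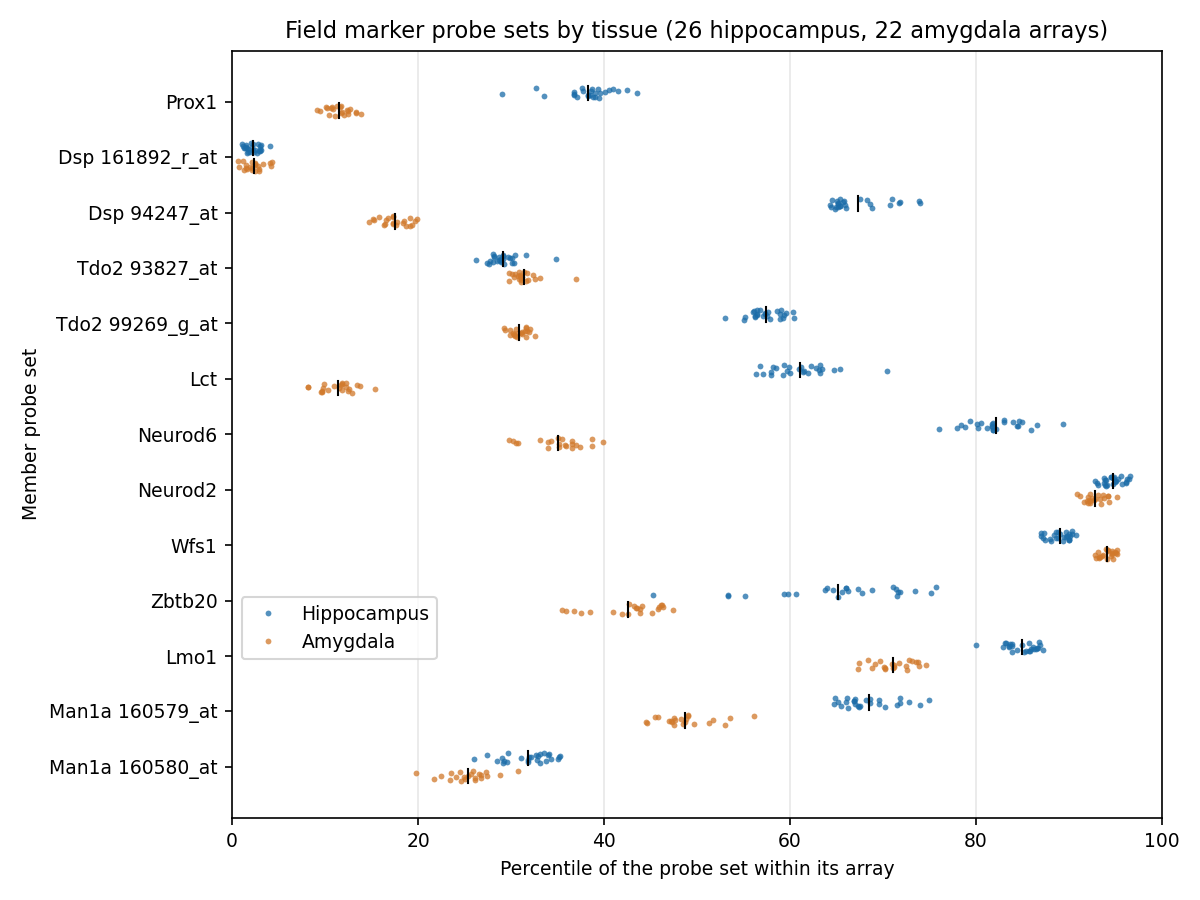
Within-array percentile (horizontal axis, from 0 to 100 percent of the 12422 ranked probe sets) of each of the 13 member probe sets on each of 26 hippocampus and 22 amygdala arrays, with 1 point per array and a black bar at the mean of each tissue. Dsp 94247_at, Lct and Neurod6 show the widest gaps between tissues, Wfs1 is the probe set with every hippocampus array lower, and Dsp 161892_r_at shows no gap.

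Other genes of the same fields did not all follow. Over all probe sets the test called 20.6% higher in hippocampus and 21.7% lower. Of 6 further dentate granule cell genes with a probe set, 3 were called higher in hippocampus and 3 lower, with a median difference of -0.761 points. Npnt, which encodes the matrix protein nephronectin, was higher at a mean percentile of 44.0 against 26.8, and Neurod1, a granule cell differentiation factor, at 28.3 against 20.5. Calb1, the calcium buffer calbindin, which many amygdala neurons also express, was lower at 87.5 against 93.6. Of 6 further CA1 to CA3 genes, 3 were higher and 1 lower, led by Pou3f1, a POU domain factor of CA1 cells, at 67.4 against 42.9. Plagl1, a zinc finger gene, was the lower one, at 28.7 against 50.6. Of 6 forebrain excitatory neuron genes 2 were higher and 1 lower. The lower one was Mef2c, an activity-regulated transcription factor, at 72.4 against 90.3. Fezf2 was among the higher ones, at 80.9 against 68.1, without overlap between the tissues.

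Genes of neighbouring structures and other cell types differed between the tissues too. The same test called 20.6% of all probe sets higher in hippocampus and 21.7% lower. Whether a list departed from those shares was not tested. Of 10 amygdala and piriform genes 2 were higher in hippocampus and 5 lower. The lower ones included Cdh13, a cadherin, which differed by -22.0 points, and Tac2, a tachykinin precursor, which differed by -16.9 points. Rspo2 of the same list was higher by 15.8 points, with every hippocampus array above every amygdala array. Of 4 striatal neuron genes 2 were lower, led by the tachykinin precursor Tac1, at a mean of 30.4 in hippocampus against 65.1. Of 8 oligodendrocyte genes 6 were higher in hippocampus and 0 lower, and the summed percentile of that list was 549.9 to 594.5 in hippocampus against 474.4 to 513.8 in amygdala. Of 4 choroid plexus genes 2 were higher, Ttr, which encodes transthyretin, and Kl, which encodes klotho. Their list summed to 193.2 to 304.9 against 153.6 to 171.3. The part of these other cell types in the member differences was not tested.

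To show what surrounds the start sites of the genes that differed most, the promoter windows of Dsp, Lct and Neurod6 are printed with that of Wfs1, the gene with the opposite direction. Windows run from 250 bases before to 50 after the annotated start and come from RefSeq on assembly GRCm38.p6, where all 10 genes matched, with 12 windows. Capitals mark the E-box CANNTG, the letters read by basic helix-loop-helix factors such as Neurod2 and Neurod6. The windows lie at chr13:38151044-38151343 on the plus strand for Dsp, chr1:128328269-128328568 on the minus strand for Lct, chr6:55681214-55681513 on the minus strand for Neurod6 and chr5:36988933-36989232 on the minus strand for Wfs1.
Dsp: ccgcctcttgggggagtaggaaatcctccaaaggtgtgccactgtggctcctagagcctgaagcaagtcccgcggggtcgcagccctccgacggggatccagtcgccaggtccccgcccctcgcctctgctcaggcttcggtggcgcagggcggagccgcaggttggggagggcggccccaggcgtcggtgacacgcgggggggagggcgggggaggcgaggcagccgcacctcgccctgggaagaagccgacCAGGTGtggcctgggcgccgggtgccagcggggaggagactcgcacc
Lct: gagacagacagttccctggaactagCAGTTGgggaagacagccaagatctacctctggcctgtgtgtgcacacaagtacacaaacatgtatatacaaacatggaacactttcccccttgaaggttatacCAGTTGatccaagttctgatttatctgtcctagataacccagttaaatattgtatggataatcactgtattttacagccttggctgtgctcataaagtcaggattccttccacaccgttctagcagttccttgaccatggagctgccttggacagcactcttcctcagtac
Neurod6: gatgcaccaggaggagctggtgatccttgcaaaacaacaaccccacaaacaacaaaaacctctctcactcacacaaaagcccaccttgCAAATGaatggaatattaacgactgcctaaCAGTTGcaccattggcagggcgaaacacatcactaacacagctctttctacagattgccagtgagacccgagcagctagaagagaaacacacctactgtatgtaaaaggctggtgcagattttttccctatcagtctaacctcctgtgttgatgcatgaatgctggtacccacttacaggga
Wfs1: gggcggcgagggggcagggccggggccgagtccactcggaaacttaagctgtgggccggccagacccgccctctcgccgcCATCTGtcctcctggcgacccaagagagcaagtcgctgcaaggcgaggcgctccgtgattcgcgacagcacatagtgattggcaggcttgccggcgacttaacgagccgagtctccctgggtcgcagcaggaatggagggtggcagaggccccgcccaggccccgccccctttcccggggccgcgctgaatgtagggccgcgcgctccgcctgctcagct

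By base composition the 4 windows fell into 2 pairs. The Dsp and Wfs1 windows were rich in G and C, at 73.0% and 70.0%, with 27 and 30 CpG dinucleotides. The Lct and Neurod6 windows held 44.7% and 46.3% G and C, with 1 and 3 CpG dinucleotides. Over all 32851 windows in the table the medians were 52.7% and 7. CANNTG, which reads the same on both strands, occurred at 1 place in Dsp and Wfs1 and at 2 places in Lct and Neurod6. It was present in 9 of the 12 member windows and in 72.3% of all windows, so the members did not stand out by it. CAGATG, a form within CANNTG and searched on both strands, was found in 3 of the 12 windows, of Prox1, Neurod2 and Wfs1, and in 17.2% of all windows. A match is a description of letters, not of binding.

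No member probe set passed the test between arms in either tissue. The question of this comparison was whether the field genes differed between naive, stimulus-exposed and conditioned groups within hippocampus or amygdala. In hippocampus 9 of the 13 probe sets passed the filter on low values, which left 7453 probe sets in each tissue. Prox1, Dsp 161892_r_at, Tdo2 93827_at and Man1a 160580_at did not pass it. In hippocampus 0 members were called for CS minus NH, FC minus NH and FC minus CS, and over all probe sets the calls were 0.0134%, 0.0134% and 0% (limma, batch as a fixed block, Benjamini-Hochberg adjusted p under 0.05). An unadjusted p under 0.05 was reached by 0 members in each, against 1.45%, 2.27% and 0.765% of all probe sets tested. Each of these is below the share of 0.05 that evenly spread p-values would give, and the reason was not tested. The comparisons share arrays, so they are not independent of each other.

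Among the granule cell genes in hippocampus, Dsp 94247_at had log2 levels of 6.96 to 7.29 in NH (median 7.03), 6.94 to 7.50 in CS (median 7.09) and 6.98 to 7.45 in FC (median 7.12). The 3 arms overlapped throughout, and with batch as a block the log2 difference was -0.03 ± 0.0965 (SE) for CS minus NH and 0.01 ± 0.0953 for FC minus NH. Tdo2 99269_g_at had 6.47 to 6.77 in NH (median 6.61), 6.56 to 6.78 in CS (median 6.63) and 6.59 to 6.77 in FC (median 6.65), again overlapping, with log2 differences from NH of 0.07 ± 0.0614 and 0.10 ± 0.0607 (SE). Neither passed. Lct had 6.59 to 7.28 in NH (median 6.73), 6.59 to 6.93 in CS (median 6.79) and 6.72 to 7.01 in FC (median 6.87). Its log2 differences from NH were -0.11 ± 0.0966 and -0.01 ± 0.0954 (SE), and both turned sign without the brightest NH array, replicate 100 of batch 4, to 0.03 and 0.12. Prox1, below the filter, had 5.15 to 5.76 in NH (median 5.68), 5.39 to 5.92 in CS (median 5.75) and 5.60 to 6.00 in FC (median 5.74), which also overlapped. Fitted without the filter, the 4 dim probe sets had log2 differences from NH between -0.06 (Dsp 161892_r_at in CS) and 0.18 (Man1a 160580_at in FC), and 0 of them passed.

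The pyramidal cell genes of hippocampus overlapped between arms as well. Neurod6 had log2 levels of 7.53 to 8.20 in NH (median 7.88), 7.77 to 8.13 in CS (median 7.94) and 7.66 to 8.55 in FC (median 8.02), with log2 differences from NH of -0.02 ± 0.121 for CS and 0.03 ± 0.120 for FC (SE). Neurod2 had 8.96 to 9.52 in NH (median 9.15), 9.11 to 9.61 in CS (median 9.32) and 8.96 to 9.55 in FC (median 9.29), with differences of 0.07 ± 0.0760 and 0.03 ± 0.0750. Wfs1 had 8.25 to 8.62 in NH (median 8.46), 8.26 to 8.63 in CS (median 8.52) and 8.24 to 8.65 in FC (median 8.54), with differences of 0.10 ± 0.0773 and 0.11 ± 0.0764. In all 3 genes the range of each arm overlapped those of both others. For the cofactor Lmo1 the log2 difference from NH was -0.06 ± 0.0711 in CS and -0.00 ± 0.0702 in FC. For the mannosidase probe set Man1a 160579_at it was 0.13 (95% interval -0.08 to 0.34) and 0.09 (-0.11 to 0.30).

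Over the 9 tested probe sets the log2 differences ran from -0.11 to 0.13 for CS minus NH, from -0.01 to 0.11 for FC minus NH and from -0.04 to 0.10 for FC minus CS. The 95% intervals of single members reached from -0.31 to 0.37, from -0.26 to 0.34 and from -0.25 to 0.25. Those are the outermost bounds over the 9 probe sets. Each member is limited by its own interval, and log2 changes inside that interval were not excluded with this many arrays. For CS minus NH the interval ran from -0.24 to 0.37 for Zbtb20 and from -0.05 to 0.20 for Tdo2 99269_g_at. The smallest adjusted p of a member in hippocampus was 0.9999 (limma). The member medians were 0.06, 0.03 and 0.02, beside 0.00, -0.00 and 0.00 over all probe sets tested.

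In amygdala 5 member probe sets passed the filter: Neurod2, Wfs1, Zbtb20, Lmo1 and Man1a 160579_at. Again 0 were called for CS minus NH, FC minus NH and FC minus CS, beside 0.0134%, 0.0939% and 0% of all probe sets (limma, batch as a fixed block). Unadjusted, 1 member reached p under 0.05, Wfs1 in FC minus NH, where 5.15% of all probe sets did. The shares of all probe sets were 3.92% for CS minus NH and 1.23% for FC minus CS, with 0 members in either. Wfs1 had log2 levels of 8.48 to 8.82 in NH (median 8.58), 8.66 to 8.96 in CS (median 8.74) and 8.47 to 8.96 in FC (median 8.87). The FC range enclosed the NH range, with 1 FC array at 8.47 and the other FC arrays at 8.78 or above. The difference with batch as a block was 0.18 ± 0.0821 (SE, 95% interval 0.01 to 0.35, unadjusted p = 0.0382, limma adjusted p = 0.894). Within batches it was 0.16 in batch 2, with 4 FC and 3 NH arrays, and 0.21 in batch 3, with 2 FC arrays and 1 NH array. Leaving out single arrays moved it between 0.14 and 0.26. With array quality weights, which give less say to arrays that deviate over all probe sets, it was 0.23 and passed (limma adjusted p = 0.0158), but that setting called 12.2% of all probe sets in this comparison.

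Neurod2 in amygdala had log2 levels of 8.29 to 8.71 in NH (median 8.41), 8.33 to 8.72 in CS (median 8.60) and 8.36 to 8.80 in FC (median 8.56), and its difference from NH was -0.00 ± 0.0790 in CS and 0.01 ± 0.0776 in FC (SE) with batch as a block. Lmo1 had 6.60 to 6.95 in NH (median 6.76), 6.67 to 6.93 in CS (median 6.91) and 6.63 to 7.01 in FC (median 6.80), with differences of 0.09 ± 0.0600 and 0.06 ± 0.0589. Man1a 160579_at had 5.43 to 5.93 in NH (median 5.66), 5.52 to 6.03 in CS (median 5.66) and 5.56 to 5.92 in FC (median 5.71), with differences of -0.00 ± 0.0762 and 0.00 ± 0.0748. All of these overlapped between arms. The 8 amygdala probe sets below the filter included both Dsp and both Tdo2 probe sets, Prox1, Lct, Neurod6 and Man1a 160580_at.

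The 5 tested members in amygdala spanned log2 differences of -0.00 to 0.13 for CS minus NH, 0.00 to 0.18 for FC minus NH and -0.02 to 0.05 for FC minus CS, within 95% intervals that reached from -0.17 to 0.31, from -0.15 to 0.35 and from -0.14 to 0.20. Their medians were 0.06, 0.06 and 0.02, beside 0.01, 0.01 and 0.00 over all probe sets tested. Whether an arm difference was unlike in the 2 tissues was tested in a joint fit for these 5 probe sets. That fit takes the arrays of the tissues as unrelated, as does the tissue comparison, and what shared animals would change was not tested. Of the 7242 probe sets in that fit 0% were called in each of the 3 contrasts, and member adjusted p ran from 0.981 upward (limma). For Wfs1 in FC minus NH, hippocampus minus amygdala was -0.07 on the log2 scale (95% interval -0.30 to 0.16).

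**Figure D2:**
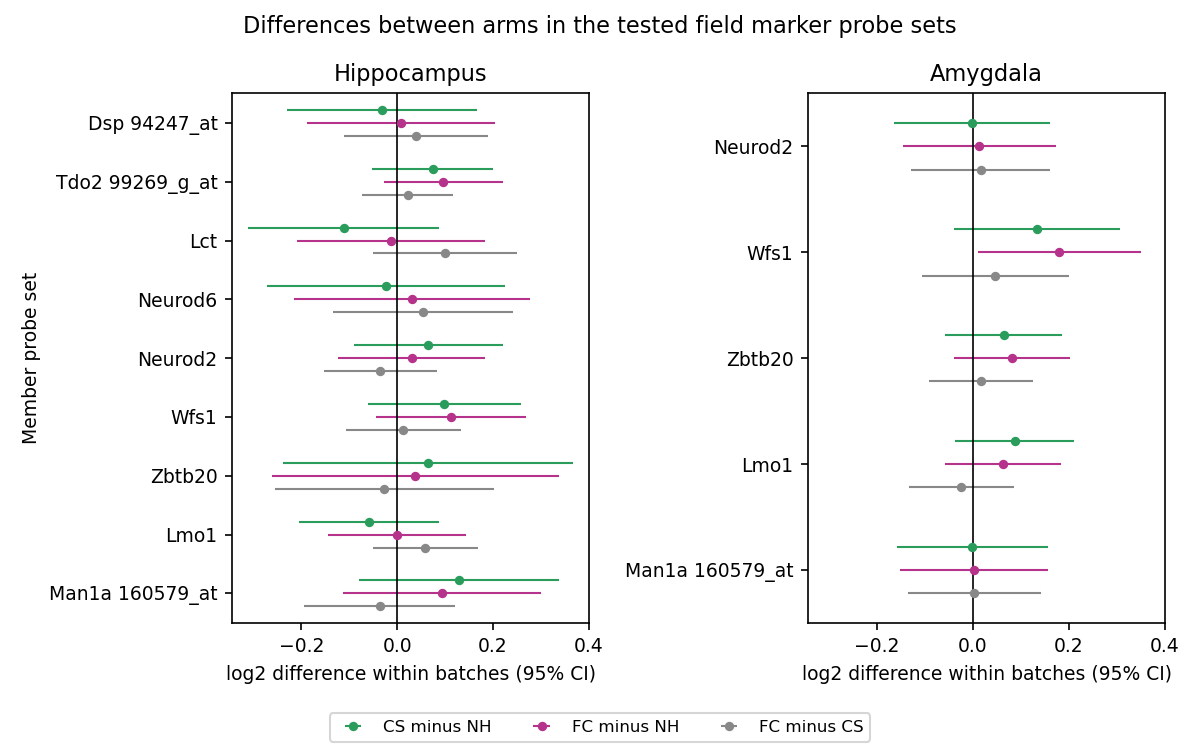
Log2 difference between arms (CS minus NH, FC minus NH and FC minus CS) of each tested member probe set in hippocampus and amygdala, with batch as a fixed block; bars are 95% intervals. Every interval includes 0 except that of Wfs1 in amygdala FC minus NH, which starts at 0.01.

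Zbtb20 and Neurod2 were the tested members with a processing batch that lay wholly apart from the other arrays of its tissue. For Neurod2 all 7 hippocampus arrays of batch 4, of 3 arms, lay above the 19 arrays of the other batches, as in 0.604% of the probe sets tested there. For Zbtb20 all 6 amygdala arrays of batch 1, NH only, had log2 levels of 5.27 or less and the 16 others 5.34 or more, as in 2.16% of those tested. Zbtb20 is given array by array because the batches that differ hold NH alone. In amygdala the 6 NH arrays of batch 1 had log2 levels of 4.97, 5.06, 5.01, 5.12, 5.27 and 5.03, and the 4 NH arrays of batches 2 and 3 had 5.43, 5.51, 5.36 and 5.34. All batch 1 arrays lay below all others of the same arm, with means 0.33 apart on the log2 scale. This held for 6.27% of the 7453 probe sets tested in amygdala. In hippocampus the 6 NH arrays of batch 7 had 6.73, 6.78, 6.48, 6.05, 6.44 and 6.54, and the 4 NH arrays of batches 4 and 6 had 7.53, 6.77, 7.33 and 6.99. The highest of batch 7 and the lowest of the others crossed by less than 0.01, and the means lay 0.65 apart. Batches of NH alone lay all below the others in 0.751% and all above in 0.309% of the probe sets tested in hippocampus. No other tested member had them all below or above in either tissue, where 2.95% were all above in amygdala.

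The differences between arms of Zbtb20 moved with the treatment of batch in the fit. In amygdala the CS arrays ranged from 5.39 to 5.56 (median 5.47) and the FC arrays from 5.39 to 5.59 (median 5.49), both overlapping the NH arrays of batches 2 and 3. Without a batch term FC minus NH was 0.28 (limma adjusted p = 0.0376) and passed, where that setting called 2.83% of all probe sets, and CS minus NH was 0.26 (limma adjusted p = 0.0955). With batch as a fixed block they were 0.08 ± 0.0584 and 0.06 ± 0.0594 (SE). Within batches FC minus NH was 0.04 in batch 2 and 0.18 in batch 3. In hippocampus the CS arrays ranged from 6.94 to 7.55 (median 7.17) and the FC arrays from 6.95 to 7.42 (median 7.10). Without a batch term CS minus NH was 0.43 and FC minus NH 0.39 (limma adjusted p = 0.799 and 0.903). With the block they were 0.06 ± 0.147 and 0.04 ± 0.145 (SE). Within batch 4 they were 0.21 and -0.10, and within batch 6 they were -0.05 and 0.05. The values with the block turned to -0.11 and -0.12 without NH replicate 111 of batch 4, and became 0.22 and 0.18 without NH replicate 100 of the same batch.

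**Figure D3:**
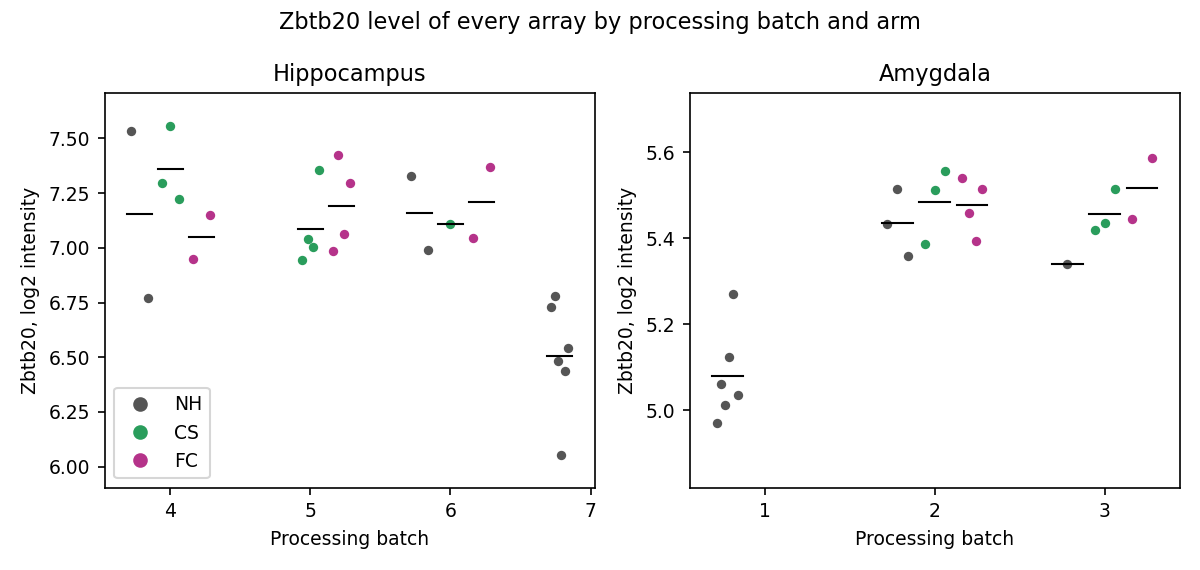
Log2 level of Zbtb20 on each array by processing batch and arm, in hippocampus and amygdala, with 1 point per array. The NH-only batches, 7 in hippocampus and 1 in amygdala, lie lowest in their tissue on average, and black bars give the mean of each arm in a batch. In batches 2, 4 and 6 the range of the NH arrays overlaps that of the FC arrays, and in batch 3 the 1 NH array is lowest.

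Apart from arms and batches, the markers were compared across the 26 hippocampus arrays to see whether genes of a field varied together from array to array. Values were taken as residuals after arm and batch with 1 probe set per gene, the brightest, which gives 45 pairs of the 10 genes. Of these, 3 pairs passed, all positive, where 14 had an unadjusted permutation p under 0.05, and r over all pairs ran from -0.51 to 0.57 with a median of 0.06. Dsp and Zbtb20 had r = 0.57 and rho = 0.68 (permutation p = 0.00217 and 0.00016, adjusted p = 0.0414 and 0.0072), and r was 0.55 without the 2 arrays farthest from the median. Within batches 4, 5 and 7 their r was 0.83, 0.75 and 0.33. Neurod6 and Man1a had r = 0.57 and rho = 0.51 (permutation p = 0.00233 and 0.00819, adjusted p = 0.0414 and 0.0856), 0.46 without 2 arrays, and 0.75, 0.59 and 0.52 within batches. Zbtb20 and Man1a had r = 0.56 and rho = 0.56 (permutation p = 0.00276 and 0.00376, adjusted p = 0.0414 and 0.0564), 0.52 without 2 arrays, and 0.01, 0.69 and 0.86 within batches, so this pair did not hold in batch 4. Batch 6, with 5 arrays, was too small for a value. None of the 3 passed when the probe sets of a gene were averaged (adjusted p = 0.155, 0.0594 and 0.301) or when arm and batch were left in (adjusted p = 0.110, 0.152 and 0.513, permutation tests).

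No pair of the dentate gyrus genes passed. Prox1 and Dsp had r = -0.19, Dsp and Tdo2 -0.01, Tdo2 and Lct -0.25, Prox1 and Tdo2 0.43, and Prox1 and Lct -0.51 (permutation adjusted p = 0.0607), which shrank to -0.28 without 2 arrays. Dsp and Lct had 0.51 (permutation adjusted p = 0.0607). Prox1 and Lmo1 ran in opposite directions at r = -0.51 and rho = -0.59 (permutation adjusted p = 0.0607 and 0.0403), so this pair passed by rank only. Such correlations were common on these arrays: 3.73% of all probe sets tested were as strongly correlated with Dsp as Zbtb20 was, and 12.2% were as strongly correlated with Zbtb20 as Dsp was. Arrays share their dissection, labelling and scan, so the correlations describe these arrays.

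**Figure D4:**
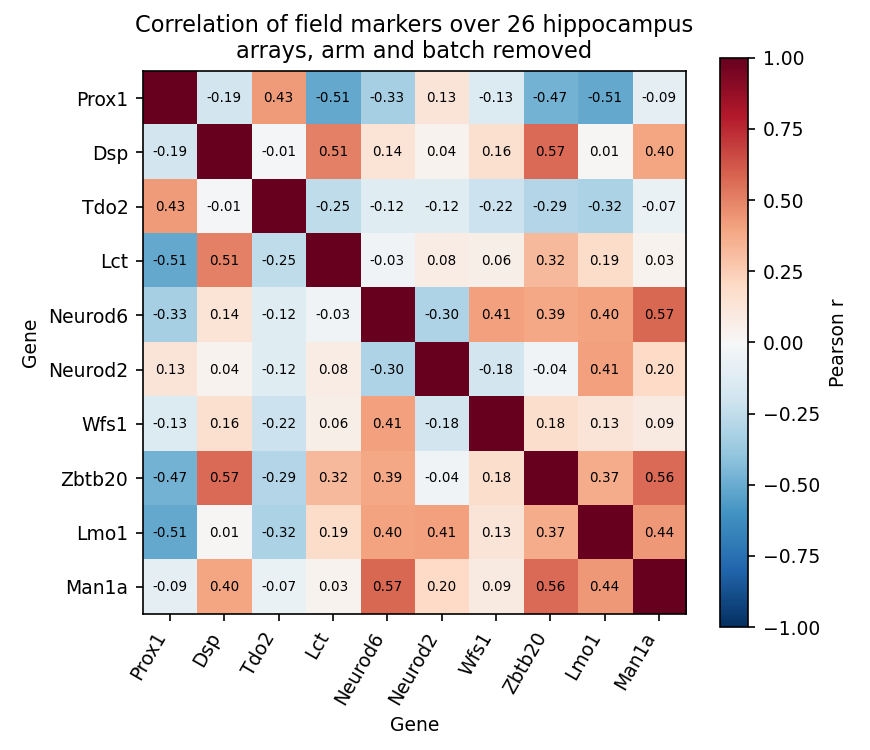
Pearson r between each pair of the 10 genes over 26 hippocampus arrays, on log2 residuals after arm and batch. Colour gives r from negative to positive, and the 3 pairs that passed, Dsp with Zbtb20, Neurod6 with Man1a and Zbtb20 with Man1a, are the strongest positive ones.

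The size of the array-to-array variation differed between members. The residual SD was 0.243 for Zbtb20, larger than in all but 2.70% of tested probe sets, and 0.198 for Neurod6, exceeded by 7.03%. It was 0.0852 for Tdo2, exceeded by 82.9%, and the median over all tested probe sets was 0.113. The genes most like each member by Pearson r over the 26 hippocampus residuals are given as a description. For Dsp they were Adcy9 at 0.78, Ets2 at 0.77 and Rsrp1 at 0.76, and for Zbtb20 they were Macf1 at 0.84, Wac at 0.83 and Ywhae at 0.81. Neurod6 was most like Vps29, Slc30a4 and Morf4l2, each at 0.83, and Man1a was most like Phyh at 0.88, Mtx2 at 0.87 and Saraf at 0.86. Prox1 was most like Usp24 at 0.83, Cx3cr1 at 0.81 and Nfyc at 0.79, Tdo2 like Nsdhl at 0.75, Lct like Slc35e4 at 0.84, Neurod2 like Bcar1 at 0.76, Wfs1 like Ndrg3 at 0.72 and Lmo1 like Tgs1 at 0.83. No member was among the 3 genes most like another, where Prox1, below the filter on low values, was not a candidate.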

How the data were processed

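The deposited values are linear intensity values, 1 per probe set and array, summarised by the authors with RMA, per the submitters' processing notes (version and the arrays normalized together: not given in the sources used here). Log2 was taken with a pseudocount of 0, after 66 array control probe sets were left out. Within each tissue limma 3.58.1 (R 4.3.3) fitted all 3 arms with processing batch as a fixed block, after the dimmest 40% of probe sets by mean were left out. P-values were adjusted by Benjamini-Hochberg over all probe sets tested, at a threshold of 0.05. Tissues were compared on within-array percentiles of 12422 probe sets, with batch as a random block (consensus correlation 0.234). Those p-values count arrays though tissue varies only between 7 batches, so batch means were also tested as samples, a setting chosen after seeing the data. Probe sets naming several genes (396) or none (1193) were not named. Named genes were all members, up to 3 genes per marker list by tissue difference, and genes most correlated with a member. The members and lists were chosen with earlier results of these data known. Correlations used 100000 permutations of residuals, which is approximate. Fits were tested on simulated data. Symbols come from the platform annotation, and promoter sequences from RefSeq GRCm38.p6. The number of arrays limits the precision.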

Additional observations from a re-analysis of the deposited data

Results flagged for a closer look

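In 78 groups of arrays (a member probe set in an arm of a tissue) 6 had an array set apart from the rest of its group by Dixon's test, where chance flags about 1 group in 20, or 3.9 groups. In hippocampus NH, replicate 100 of batch 4 had the highest Lct, at a log2 level of 7.277 against 6.59 to 6.94 on the other NH arrays, and the lowest Prox1, at 5.154 against 5.51 to 5.76. Prox1 also had a low array in hippocampus CS, replicate 109 of the same batch, at 5.39 against 5.70 to 5.92. Wfs1 had a low array in amygdala FC, replicate 21927, at 8.472 against 8.78 to 8.96. The probe set Tdo2 93827_at had a high array in amygdala NH, replicate 16768, at 5.074 against 4.61 to 4.84, and in hippocampus FC, replicate 43, at 5.557 against 5.00 to 5.25.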

How the results depend on the processing

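The counts of called members between arms stayed at 0 under every alternative and with each array left out (range 0 to 0), except amygdala FC minus NH, with 1 without a batch term (Zbtb20) and 1 with array weights (Wfs1). The tissue count of lower members was 1 in place of 2 without batch 1, 2 or 6, where Tdo2 93827_at missed the threshold (limma adjusted p = 0.0610, 0.0576 and 0.0616). Covariation gave 1 passing pair, Prox1 and Lmo1, with arm and batch kept, and 0 with the mean over probe sets. No called tissue difference or correlation reversed. No member was called between arms in the main fit, so none could reverse there. Uncalled arm values changed sign in 138 of 1410 refits, but many of these refits could not change the value. With batch as a fixed block, leaving out an array of a batch with NH alone keeps each difference as it was. Changing the filter on low values also keeps it. The share of sign changes is therefore no measure of how stable the signs are. No paired analysis was possible because the arms of a tissue share no replicate number. The filter at 60% left 33 of 42 member values.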

Other observations

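Between tissues, 20.6% of all probe sets were called higher in hippocampus and 21.7% lower, and whether the lists below departed from those shares was not tested. Of 7 astrocyte genes 4 were called higher in hippocampus and 1 lower, with summed percentiles of 545.5 to 584.8 in hippocampus and 532.4 to 568.1 in amygdala. Of 6 thalamus genes 1 was higher and 2 lower, of 9 microglia genes 1 was higher and 3 lower, of 9 vessel genes 2 were higher and 2 lower, and of 7 blood genes 0 were higher and 2 lower (limma on percentiles). Their summed percentiles overlapped between the tissues in each of these lists. No tested gene of any marker list was called between arms in either tissue, where 0% to 0.0939% of all probe sets were called. Genes below the filter on low values were not tested, and of 4 striatal neuron genes 1 was tested in hippocampus.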
